A study of Mus musculus with 32 samples.

Results

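The DEAD-box and DEAH-box RNA helicases were followed across hippocampal tissue of mice that lacked parts of the inflammasome. Members were probes whose gene symbol begins with Ddx or Dhx and a digit, other than the Y-linked Ddx3y, with a detection p-value under 0.05 on at least 3 arrays. Of 69 probes of 42 genes with such a symbol, 49 probes of 35 genes met this rule, among 14745 kept probes of 10308 named genes in all. A total of 42 member probes were detected on all 32 arrays. The probe nearest above the limit, for the spliceosomal helicase Dhx16, was detected on 16 arrays, and the probe nearest below it, for the antiviral regulator Dhx58, on 2 arrays. Dhx58, the germline helicase Ddx4, Ddx39a, Ddx42, Ddx56, Ddx59 and Dhx40 had no probe that met the rule.

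These proteins share a core that binds RNA and uses ATP to unwind short duplexes or to displace proteins from RNA. Each works at certain stages of the life of an RNA, among them ribosome assembly, splicing, export from the nucleus, translation, decay and the sensing of viral RNA. Ddx6 activates removal of the mRNA cap, represses translation together with the CCR4-NOT deadenylase complex, and is a core component of P-bodies, the cytoplasmic granules of repressed mRNA. In neurons, where many mRNAs are kept silent until they are needed at synapses, such granules are abundant. In studies of macrophages, DDX3X in mouse and DHX33 in human cells have been linked to activation of the NLRP3 inflammasome.

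Total RNA of the hippocampus, a part of the brain essential to new memories, was hybridised to 32 Illumina bead arrays, which give 1 signal per probe. The design compared young with old mice, all of the C57BL/6J background and on a chow diet, to ask how loss of inflammasome components bears on ageing of the tissue. The groups were CASP11-/- mice aged 1 month (n = 4), CIAS -/- mice aged 23 months (n = 6) and 1 month (n = 3), ASC -/- mice aged 23 months (n = 6) and 1 month (n = 3), and wild type mice aged 23 months (n = 6) and 1 month (n = 4). CASP11 is the inflammatory caspase encoded in the mouse by Casp4, CIAS the sensor encoded by Nlrp3, and ASC the adaptor encoded by Pycard. The titles of the old ASC -/- samples all give 23 months, whereas another label gives 21 months for 5 of the 6. No old CASP11-/- mice were analysed here, and the labels do not say how the mutant alleles were made.

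Between 13172 and 13900 probes were detected on each array. The 3 probes of Nlrp3 and Pycard were detected on 0 arrays. The detected probe of Casp4 averaged 5.45 ± 0.092 log2 units in young CASP11-/- mice (n = 4) and 5.45 ± 0.17 in young wild type mice (n = 4, SD), so the targeted genes give no check of the genotype labels. Replicate 6 of old wild type stood apart. Its lowest correlation with the other arrays of its group was 0.966, and the lowest among those 5 was 0.989. The mean log2 level of 5 detected striatal marker genes was 10.80 on that array, against at most 7.02 on the other old wild type arrays, while its CA1 markers averaged 8.48, against at least 10.61. Where leaving it out ended or added a call named below, or moved a count or value by over 1.5 times, the value without it is given. The correlations across arrays include it.

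Differences are given below on the log2 scale, as the group named first minus the group named second, with the standard error of a single limma fit of 7 group means to all 32 arrays. A probe was called at a Benjamini-Hochberg adjusted p under 0.05 over all 14745 probes. Across the 7 groups, limma's F-test called 8 of the 49 helicase probes, beside 11.6% of all probes. These were all 3 kept probes of Ddx6, 1 of 3 probes each of Ddx24, Ddx47 and Ddx50, and the single probes of Dhx33 and Dhx37. All of these genes other than Ddx6 act in ribosome biogenesis, a role that holds 18 of the 49 probes. They did not all differ in the same groups or direction, as given below. Most of the family differed little, as did most probes on the arrays. In the comparison of young CASP11-/- with young wild type mice 41 of the 49 probes lay within 0.2 log2 units of 0, beside 11767 of all 14745 probes. The median difference of the 49 probes was 0.02 in young CASP11-/- against young wild type mice, -0.02 in old CIAS -/- against old wild type mice and -0.02 in old ASC -/- against old wild type mice, beside 0.01, 0.02 and 0.01 over all probes.

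**Figure D1:**
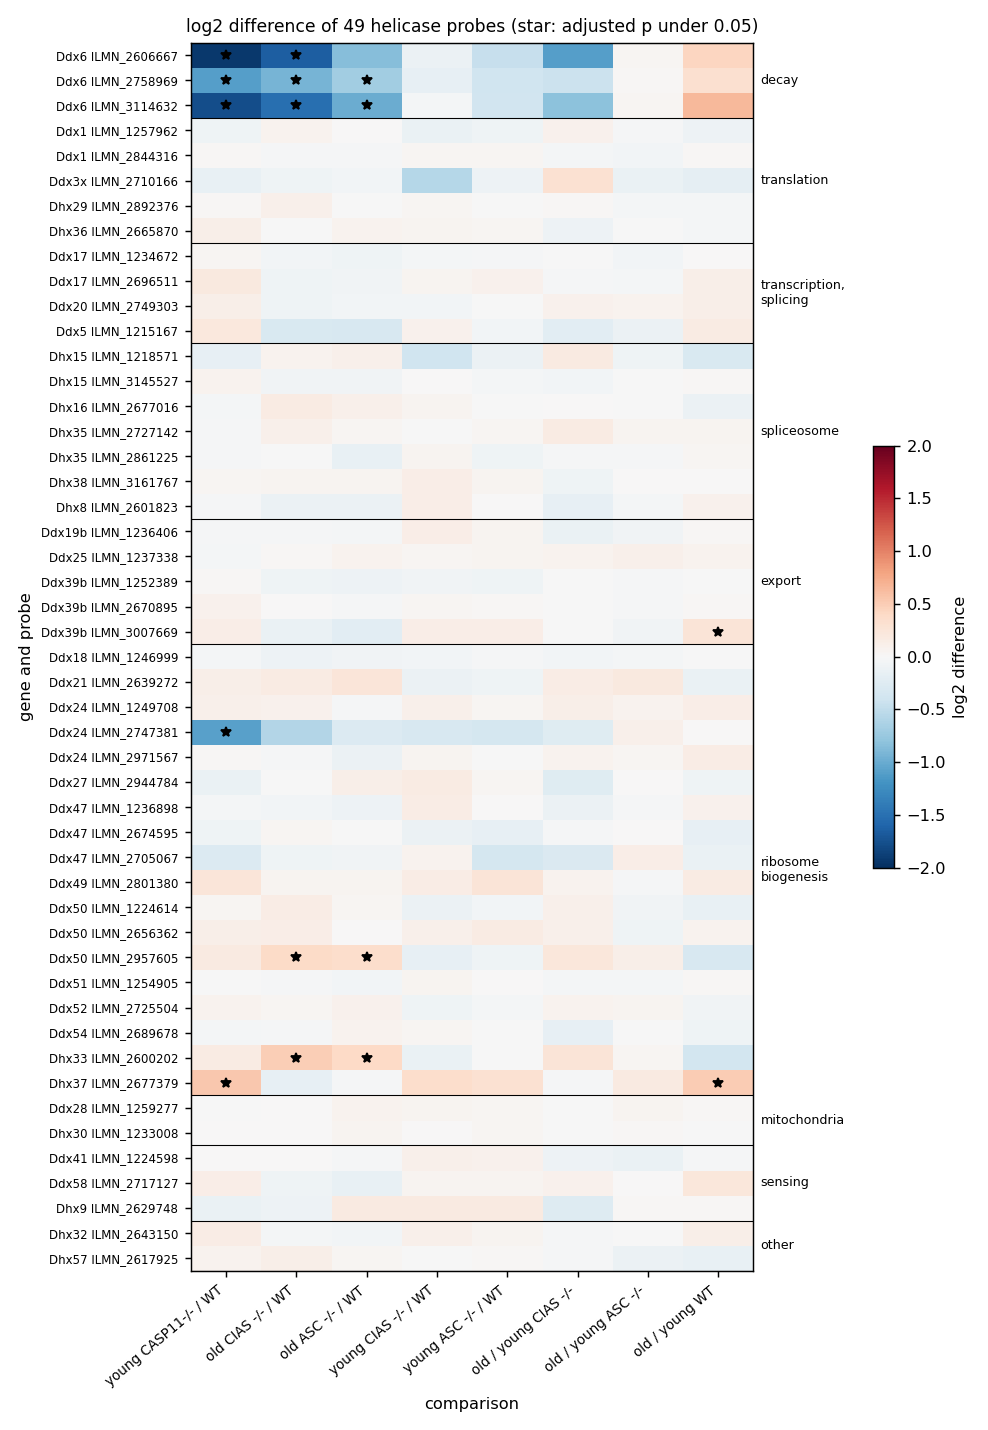
Log2 difference of the 49 helicase probes (rows, grouped by role) in 8 comparisons (columns), from blue (lower in the group named first) to red (higher), with a star where the adjusted p lay under 0.05. The 3 Ddx6 rows hold 8 of the 16 stars and the lowest differences, down to -1.92, while most other rows stay near 0.

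Ddx6 lies on chromosome 9, at 44602983 to 44640731 in GRCm38.p6, and had 4 probes, of which 1 was detected on 0 arrays. The other 3 moved together across the 32 arrays, with Pearson r from 0.941 to 0.979, a description of arrays that share their groups. On the probe of highest mean signal, ILMN_2606667, the level of Ddx6 in young CASP11-/- mice was 6.62, 6.98, 6.49 and 6.59 log2 units. In young wild type mice the same Ddx6 probe gave 8.81, 8.28, 9.13 and 8.16. Every young CASP11-/- array thus lay more than 1 log2 unit below every young wild type array. In old CIAS -/- mice the lowest, median and highest Ddx6 levels were 6.07, 7.72 and 7.85, with 3 arrays between 7.68 and 7.77 and replicate 6 far below the rest. The young CIAS -/- arrays gave 8.57, 8.24 and 8.62 for Ddx6, all above the old ones. In ASC -/- mice Ddx6 ranged from 7.53 through a median of 8.32 to 8.57 in the old group and was 7.96, 8.12 and 8.31 in the young group. Here the ages overlapped. In old wild type mice the lowest, median and highest levels of Ddx6 were 8.03, 9.38 and 9.60, and these arrays fell into 4 between 9.35 and 9.60 and 2, replicates 5 and 6, at 8.22 and 8.03.

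**Figure D2:**
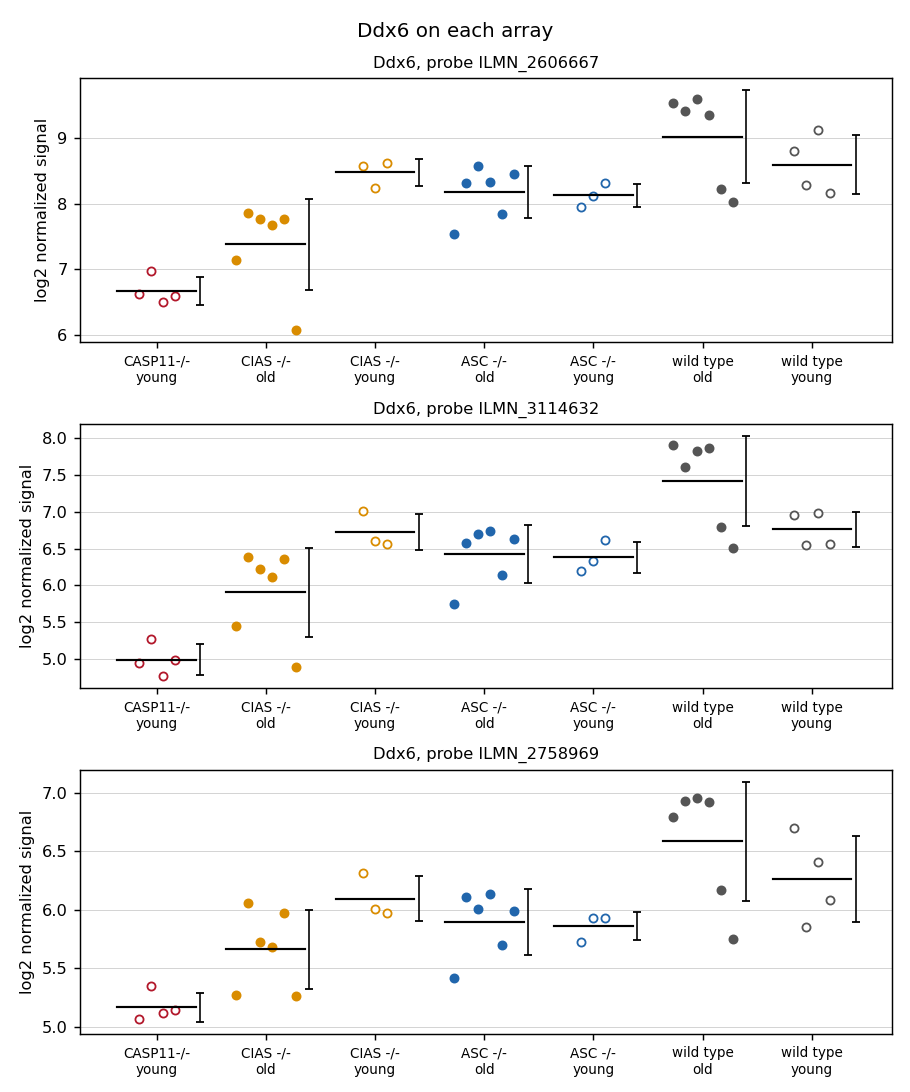
Log2 normalized signal of the 3 kept Ddx6 probes on each of 32 arrays (points, filled for old and open for young mice) in the 7 groups, with the group mean (line) and SD (bar). On all 3 probes young CASP11-/- mice have the lowest mean and old wild type mice the highest, and replicates 5 and 6 of old wild type lie below the other 4.

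By mean level on this probe, the groups ran from 6.67 ± 0.21 in young CASP11-/- mice (n = 4) through 7.38 ± 0.69 in old CIAS -/- (n = 6), 8.13 ± 0.18 in young ASC -/- (n = 3), 8.18 ± 0.40 in old ASC -/- (n = 6), 8.48 ± 0.21 in young CIAS -/- (n = 3) and 8.59 ± 0.45 in young wild type (n = 4) to 9.03 ± 0.71 in old wild type mice (n = 6, all SD) for Ddx6. Neighbouring groups in this order overlapped, other than old CIAS -/- mice, whose highest array (7.85) lay below the lowest of young ASC -/- mice (7.96). Old CIAS -/- mice overlapped young CASP11-/- mice only through replicate 6. The other probes kept young CASP11-/- mice lowest and old wild type mice highest. ILMN_3114632 averaged 4.99 ± 0.21 in young CASP11-/- mice (n = 4) and was detected on 1 of those 4 arrays, against 6.76 ± 0.24 in young wild type mice (SD, n = 4), all 4 detected. Every difference of this probe from young CASP11-/- mice is therefore measured against a level near background. In old CIAS -/- mice it was detected on 5 of 6 arrays.

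In young CASP11-/- mice, 5 of the 49 helicase probes were called against young wild type mice, 4 lower and 1 higher, beside 2.63% of all probes (1.86% lower and 0.773% higher). All 3 Ddx6 probes fell. ILMN_2606667 was 3.80-fold lower (log2 difference -1.92, SE 0.34, limma adjusted p = 0.000904). ILMN_3114632 was 3.40-fold lower (-1.77, SE 0.29, adjusted p = 0.000477), and ILMN_2758969 was 2.14-fold lower (-1.10, SE 0.22, adjusted p = 0.00432). On all 3 probes the 4 young CASP11-/- arrays lay below the 4 young wild type arrays, a separation in either direction that 13.3% of all probes showed in this comparison. Each call held when any single one of the 32 arrays was left out and under each of the other alternatives that tested the probe. Against the other young knockouts the Ddx6 levels were lower too, with fewer calls. The difference from young CIAS -/- mice was -1.81 (SE 0.36, limma adjusted p = 0.0119) on ILMN_2606667 and -1.73 (SE 0.32, adjusted p = 0.0068) on ILMN_3114632, beside 0.868% of all probes called, and -0.93 on ILMN_2758969, which missed the threshold (adjusted p = 0.055). These were the 2 helicase probes called there, and without replicate 1 or 4 of young CIAS -/- ILMN_2606667 was not called (adjusted p = 0.0541 and 0.079). Against young ASC -/- mice only ILMN_3114632, near background in young CASP11-/- mice as above, was called of the 49 (-1.39, SE 0.32, limma adjusted p = 0.0465, beside 0.312% of all probes), and leaving out 1 array ended that call in 22 of 32 cases, with adjusted p up to 0.291. Over the 3 Ddx6 probes the differences there ran from -0.70 to -1.46, each at an unadjusted limma p under 0.05, beside 9.66% of all probes. Without replicate 6 of old wild type, which enters only the shared spread, 2 helicase probes were called there beside 0.639% of all probes. These comparisons share the young CASP11-/- arrays.

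Casp4 lies on the same chromosome as Ddx6, at 5308849 to 5336791 on chromosome 9 in GRCm38.p6, 39.3 Mb away. Several cell type markers also differed between these groups. The mean log2 level of the 2 detected microglial markers of 3 listed was 7.05 to 7.15 in young CASP11-/- mice, against 7.31 to 7.57 in young wild type mice. That of 2 detected neuronal markers of 4 was 11.58 to 11.70 in young CASP11-/- mice, against 11.79 to 11.88, and that of 2 detected oligodendrocyte markers of 3 was 9.91 to 9.95, against 9.23 to 9.72 in young wild type mice. That of 3 detected CA3 markers of 4 was 7.56 to 7.67 in young CASP11-/- mice, against 7.20 to 7.54 in young wild type mice. None of these ranges overlapped, whereas those of the CA1, dentate gyrus, astrocyte, striatal and choroid plexus markers did. The part of the markers or of the chromosome position in the Ddx6 difference was not tested. In tissue RNA, fewer cells of a type and less RNA per cell cannot be told apart.

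In old CIAS -/- mice, 5 helicase probes were called against old wild type mice, 3 lower and 2 higher, beside 7.92% of all probes (4.8% lower and 3.12% higher). All 3 Ddx6 probes fell, by 1.65 on ILMN_2606667 (SE 0.28, 3.13-fold lower, limma adjusted p = 0.000344), by 1.51 on ILMN_3114632 (SE 0.24, adjusted p = 0.000177) and by 0.92 on ILMN_2758969 (SE 0.18, adjusted p = 0.00165). On the first 2 of these Ddx6 probes the groups did not overlap, as for 2.96% of all probes. Without replicate 6 of old wild type the difference on ILMN_2606667 was -1.85, and without the lowest array, replicate 6 of old CIAS -/-, it was -1.38, with the call held in both. Leaving out that old CIAS -/- array also lowered the share of all probes called to 4.49%, while 5 helicase probes, 3 lower and 2 higher, were still called. In old ASC -/- mice, 4 helicase probes were called against old wild type mice, 2 lower and 2 higher, beside 3.82% of all probes (2.08% lower and 1.74% higher). Ddx6 fell by 0.99 on ILMN_3114632 (SE 0.24, limma adjusted p = 0.0206) and by 0.69 on ILMN_2758969 (SE 0.18, adjusted p = 0.0312), while ILMN_2606667 gave -0.85 (SE 0.28, adjusted p = 0.0731). The old ASC -/- and old wild type arrays overlapped on all 3. Without replicate 6 of old wild type all 3 were called, with differences of -1.18 on ILMN_3114632, -0.86 on ILMN_2758969 and -1.05 on ILMN_2606667. Without replicate 1 or replicate 5 of old ASC -/-, none of the 49 helicase probes was called by limma, while the share of all probes called was 2.32% and 1.08%, and the highest adjusted p of ILMN_3114632 in these cases was 0.0646. Both comparisons share the old wild type arrays.

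Between old CIAS -/- and old ASC -/- mice limma called none of the 49 helicase probes beside 0.0339% of all probes, and 7 of the 49 had an unadjusted p under 0.05, beside 6.95% of all probes. The Ddx6 difference there was -0.80 on ILMN_2606667, with a 95% interval from -1.36 to -0.23. The mean level of 2 detected microglial markers was 7.12 to 7.51 in old CIAS -/- mice and 7.51 to 7.76 in old ASC -/- mice, against 7.73 to 8.09 in old wild type mice, with or without replicate 6. That of 2 detected oligodendrocyte markers was 8.80 to 9.47 in old CIAS -/- mice and 8.76 to 9.35 in old ASC -/- mice, against 9.44 to 9.67 in old wild type mice without replicate 6, which gave 10.29. Also without that array, 3 astrocyte markers averaged 9.56 to 10.07 in old CIAS -/- mice and 9.65 to 10.05 in old ASC -/- mice, against 10.23 to 10.51 in old wild type mice. Neuronal markers averaged 11.70 to 11.84 in old CIAS -/- mice and 11.70 to 11.93 in old ASC -/- mice. In old wild type mice they averaged 11.91 to 12.09 without replicate 6, which gave 11.69. The 2 detected of 4 dentate gyrus markers averaged 8.07 to 8.33 in old CIAS -/- mice and 8.23 to 8.56 in old ASC -/- mice. In old wild type mice they averaged 8.34 to 8.83 without replicate 6, which gave 6.14. Old CIAS -/- mice thus lay below these 5 old wild type arrays on microglial, astrocyte, neuronal and dentate gyrus markers without overlap, and old ASC -/- mice on astrocyte and oligodendrocyte markers. Replicate 6 gave 9.83 for the astrocyte markers. With it included, only the microglial range of old CIAS -/- mice and the oligodendrocyte range of old ASC -/- mice stayed below that of old wild type. The part of these markers in the Ddx6 differences was not tested.

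Among young mice, none of the 49 helicase probes was called by limma for ASC -/- against wild type, beside 0.00678% of all probes, or for CIAS -/- against wild type, beside 0%. In each of these comparisons 3 of the 49 had an unadjusted p under 0.05, beside 4.5% of all probes for ASC -/- and 7.81% for CIAS -/-. On ILMN_2606667 the Ddx6 difference was -0.47 for ASC -/- (95% interval -1.21 to 0.28) and -0.12 for CIAS -/- (-0.86 to 0.63). With 3 and 4 arrays a group, these intervals include both no difference and a decrease of the size seen in old ASC -/- mice.

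With age, Ddx6 passed no test in any genotype. In CIAS -/- mice the old-minus-young difference on ILMN_2606667 was -1.10 (SE 0.34, limma adjusted p = 0.144), and all 6 old arrays lay below all 3 young arrays, a separation in either direction that 6.91% of all probes showed. In ASC -/- mice it was 0.05 (SE 0.34, adjusted p = 0.992), and in wild type mice 0.43 (SE 0.31, adjusted p = 0.46). None of the 49 helicase probes was called by limma for age in CIAS -/- mice, beside 0.692% of all probes, in ASC -/- mice, beside 0.264%, or for the mean age effect of 3 genotypes, beside 5.52%. At an unadjusted p under 0.05 these comparisons had 7 of 49 probes in CIAS -/- mice beside 12.2% of all probes, 0 in ASC -/- mice beside 7.66%, and 6 for the mean effect beside 17.8%. The age effect of Ddx6 in CIAS -/- mice minus that in wild type mice was -1.53 (SE 0.46, limma adjusted p = 0.11) on ILMN_2606667 and -1.47 (SE 0.40, adjusted p = 0.0803) on ILMN_3114632, with 0 of 49 helicase probes called beside 0.359% of all probes, and 9 at an unadjusted p under 0.05 beside 13.8%. For ASC -/- mice limma called 0 of 49 beside 0%, with 4 unadjusted beside 10.1%. Replicate 6 of old wild type decided several of these calls. Without it, the CIAS -/- and wild type age effects of Ddx6 differed by -1.73 (adjusted p = 0.0411) on ILMN_2606667 and -1.66 (adjusted p = 0.022) on ILMN_3114632, beside 1.24% of all probes called, and ILMN_3114632 rose with age in wild type mice by 0.84 (adjusted p = 0.0404).

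Other genes of the machinery in which Ddx6 works were read from lists of its decapping partners and of CCR4-NOT and microRNA silencing. In the silencing list, which holds older symbols of Argonaute genes beside the current ones, 15 of 24 symbols had a kept probe. In old CIAS -/- against old wild type mice 7 of its 27 probes fell and 0 rose, beside 4.8% of all probes lower and 3.12% higher. The 7 that fell included ILMN_3109164 and ILMN_3035435, both of Tnrc6b. Without old wild type replicate 6, 5 fell, beside 8.12% of all probes called in either direction. Without old CIAS -/- replicate 6, 3 fell, beside 4.49% of all probes called in either direction. Tnrc6b, a scaffold that links Argonaute to the deadenylases, averaged 4.88 ± 0.27 in old CIAS -/- mice (n = 6) and 5.47 ± 0.24 in old wild type mice (n = 6, SD) on ILMN_3035435, a difference of -0.59 (limma adjusted p = 0.00236). This Tnrc6b probe was detected on 2 of 6 old CIAS -/- arrays, 3 of 6 old ASC -/- arrays and all 6 old wild type arrays, so its differences are against levels near background. Tob1, an adaptor of the deadenylases, fell by 0.39 (adjusted p = 0.00194), and Cnot4, a ubiquitin ligase that associates with the complex, by 0.72 on ILMN_2657911 (adjusted p = 0.0109). The other Cnot4 probes gave -0.04 and -0.08 there, neither called. In old ASC -/- mice 3 of these 27 probes fell and 0 rose against old wild type mice, beside 2.08% of all probes lower, with Tnrc6b at -0.45 (limma adjusted p = 0.0334) and Tob1 at -0.31 (adjusted p = 0.0236) among them. Both of these calls were lost without replicate 1 or 5 of old ASC -/-, and that of Tnrc6b also without replicate 1 or 3 of old wild type (adjusted p up to 0.09). In young CASP11-/- against young wild type mice 2 fell and 1 rose, beside 2.63% of all probes called. Those that fell were Ago2, the Argonaute that cleaves targets, at -0.71 (limma adjusted p = 0.00545), and Cnot4 on the same probe at -0.83 (adjusted p = 0.0322). The other Cnot4 probes gave -0.40 and -0.45, neither called, and the Cnot4 call was lost without any 1 of the 4 young wild type arrays or replicate 1, 3 or 4 of young CASP11-/- (adjusted p up to 0.108). With age in wild type mice 3 of these probes rose and 0 fell, beside 2.77% of all probes higher.

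The decapping list had 16 of 19 genes with a kept probe, 25 probes in all. Xrn1, the exonuclease that degrades decapped mRNA, was not above background in either old knockout. Its probe was detected on 0 of 6 old CIAS -/- arrays, 0 of 6 old ASC -/- arrays, 5 of 6 old wild type arrays and 0 of 4 young wild type arrays. It was called lower in old CIAS -/- (limma adjusted p = 0.000252) and in old ASC -/- mice (adjusted p = 0.0197) than in old wild type mice, and higher in old than in young wild type mice (adjusted p = 0.03). Each array of the lower group was also set to no less than its lowest level of a detected probe. Xrn1 was then 1.09-fold lower in old CIAS -/- and 1.08-fold lower in old ASC -/- mice than in old wild type mice. Likewise it was 1.09-fold higher in old than in young wild type mice. The old wild type mean includes an array on which the probe was not detected, so these values are no strict bounds. The call with age was lost in 6 of 32 cases in which 1 array was left out (adjusted p up to 0.0985). Lsm14b, an RNA-binding protein of P-bodies, was higher in young CASP11-/- than in young wild type mice on 1 of its 3 probes, ILMN_2782663, by 0.71 (adjusted p = 0.0297), a call lost without replicate 1 or 3 of young wild type or replicate 2 or 3 of young CASP11-/- (adjusted p up to 0.115). In full, 1 of the 25 probes rose and 2 fell in old CIAS -/- mice (12% called, beside 7.92% of all probes), 0 rose and 1 fell in old ASC -/- mice (4%, beside 3.82%), 1 rose and 0 fell in young CASP11-/- mice (4%, beside 2.63%), and 3 rose and 1 fell with age in wild type mice (16%, beside 5.25%). Without old wild type replicate 6, 1 rose and 3 fell in old CIAS -/- mice (beside 8.12% of all probes) and 2 rose and 0 fell in young CASP11-/- mice (beside 4.14%). Also without that array, 1 rose and 1 fell with age in wild type mice (beside 6.73%). With all arrays, the median difference of this list lay between 0.00 and 0.03 in these 4 comparisons.

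The probes of other genes whose levels followed Ddx6 ILMN_2606667 most closely over the 32 arrays were those of Miga1, a protein of the mitochondrial outer membrane (Pearson r = 0.952), Mllt3, a subunit of a transcription elongation complex (0.940), Zmiz1, a transcriptional coregulator (0.936), Ppargc1a, a coactivator of mitochondrial genes (0.934), and Scn1a, a voltage-gated sodium channel subunit (0.932). In all, 27 of 14742 probes of other genes reached an r of 0.9 and 190 reached 0.8. Miga1 averaged 7.22 ± 0.13 in young CASP11-/- mice and 8.41 ± 0.16 in young wild type mice (SD, n = 4 each). Among the helicases the closest were Ddx24 on ILMN_2747381 (0.826), Ddx47 on ILMN_2705067 (0.438) and Dhx8 (0.398). The second principal component of all kept probes, with 14.2% of the variance, correlated with Ddx6 at an absolute r of 0.780. These values describe arrays that share groups, and old wild type replicate 6 is among them.

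The 12 ribosome biogenesis genes had 18 kept probes. Their products act in the processing and folding of ribosomal RNA, mostly in the nucleolus. Ddx24, which acts on the large subunit, fell on 1 probe only. On ILMN_2747381 the level of Ddx24 was 8.43, 8.56, 8.26 and 8.85 in young CASP11-/- mice, against 9.79, 9.61, 9.43 and 9.60 in young wild type mice, with no overlap. The difference was -1.08 (SE 0.24, 2.12-fold lower, limma adjusted p = 0.0111). The call was lost without replicate 3 of young CASP11-/- (adjusted p = 0.0525). The other Ddx24 probes gave 0.10 (95% interval -0.07 to 0.26) and 0.02 (-0.11 to 0.16) in the same comparison. Over the arrays ILMN_2747381 correlated with them at r = -0.248 and 0.197, whereas the 3 Ddx6 probes agreed. In old CIAS -/- mice ILMN_2747381 ranged from 7.77 on replicate 6, the array with the lowest Ddx6, through a median of 9.17 to 9.82, against 9.34 to 9.79 in old wild type mice, a Ddx24 difference of -0.58 that missed the threshold (adjusted p = 0.0671). Without replicate 6 of old CIAS -/- that difference was -0.33 (adjusted p = 0.196).

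**Figure D3:**
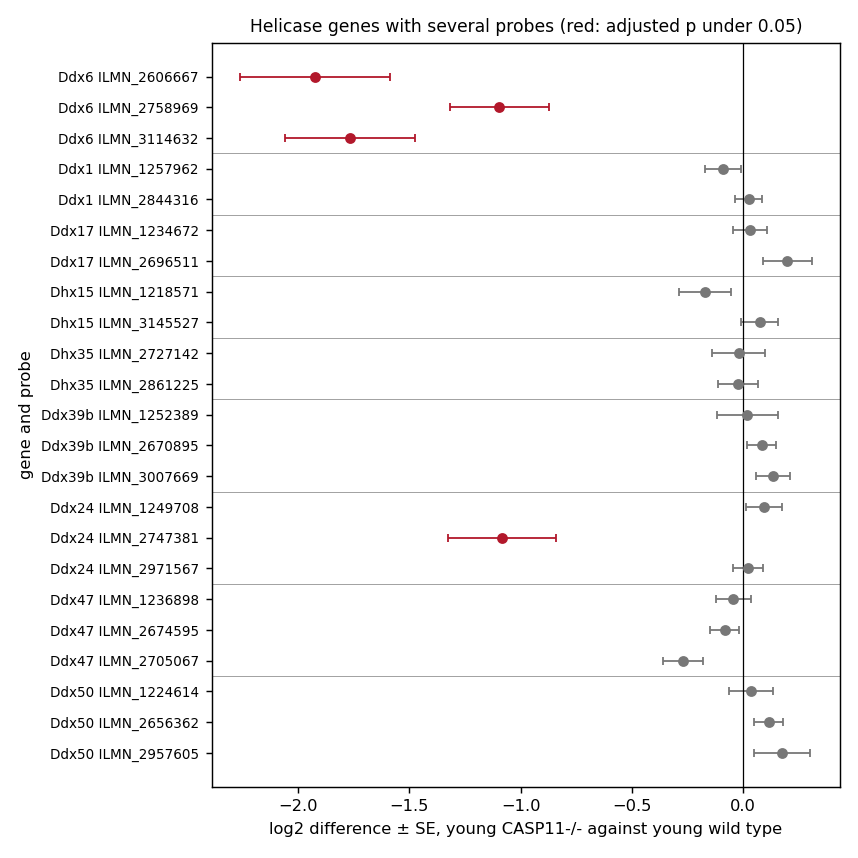
Log2 difference between young CASP11-/- and young wild type mice (point) with its SE (bar) for each probe of the 9 helicase genes with several kept probes, in red where the adjusted p lay under 0.05. All 3 Ddx6 probes lie at or below -1.10, whereas 1 of 3 Ddx24 probes lies at -1.08 and the other 2 near 0.

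Dhx33, and Ddx50 on ILMN_2957605 only, were called higher in both old knockouts than in old wild type mice, and their promoters are shown for that reason. All of these calls but that of Dhx33 in old CIAS -/- mice were lost without certain single arrays, as given below. Dhx33 promotes synthesis of ribosomal RNA, and Ddx50 is a nucleolar paralog of Ddx21. The RefSeq windows of 300 bases, of GRCm38.p6, both on the minus strand, span chr11:71004383-71004682 for Dhx33 and chr10:62651169-62651468 for Ddx50 and are written 5′ to 3′ along the gene.
Dhx33: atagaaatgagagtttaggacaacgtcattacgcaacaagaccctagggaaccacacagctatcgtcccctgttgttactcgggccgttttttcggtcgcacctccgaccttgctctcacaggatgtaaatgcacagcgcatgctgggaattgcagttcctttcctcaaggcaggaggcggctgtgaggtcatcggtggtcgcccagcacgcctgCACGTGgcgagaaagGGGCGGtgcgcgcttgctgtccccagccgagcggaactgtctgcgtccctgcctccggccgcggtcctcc
Ddx50: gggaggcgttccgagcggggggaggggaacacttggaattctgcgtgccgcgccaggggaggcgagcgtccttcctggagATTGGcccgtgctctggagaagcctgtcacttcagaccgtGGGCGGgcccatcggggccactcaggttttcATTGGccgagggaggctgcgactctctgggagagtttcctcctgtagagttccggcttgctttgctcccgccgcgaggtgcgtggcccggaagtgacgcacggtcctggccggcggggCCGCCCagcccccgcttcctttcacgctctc
Capitals mark CACGTG, the E-box read by Myc family factors, GGGCGG, the GC box, and CCAAT, each on either strand, where CACGTG is its own reverse complement. The Dhx33 window holds 1 CACGTG and a GC box. The Ddx50 window holds GC boxes and CCAAT, and a further RefSeq start of Ddx50, whose window is not printed, holds none of the 3. Windows were given for 33 of the member genes, and none for Ddx6. Of 42 member windows 4 held CACGTG (9.52%, against 7.15% of 32851 windows of all genes), 52.4% held GGGCGG (35.7% of all) and 40.5% held CCAAT (37.4% of all). A match describes the letters and is no evidence of a site in use.

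Dhx33 in old CIAS -/- mice ranged from 8.89 through a median of 8.97 to 9.24, against 7.92, 8.69 and 8.75 in old wild type mice, so that the groups did not overlap. The difference was 0.50 (SE 0.11, 1.41-fold higher, limma adjusted p = 0.00491), and it held without any single array of the 32. In old ASC -/- mice Dhx33 ranged from 8.74 through 8.92 to 9.07, with a difference from old wild type mice of 0.40 (SE 0.11, limma adjusted p = 0.0383). Without replicate 6 of old wild type, the lowest array, the old CIAS -/- difference was 0.38 (adjusted p = 0.00772) and the old ASC -/- difference 0.28, no longer called (adjusted p = 0.0668). In young CASP11-/- mice Dhx33 was 8.99, 9.16, 9.20 and 8.88, against 8.64, 8.80, 9.04 and 9.10 in young wild type mice, which overlap. In young CIAS -/- mice Dhx33 averaged 8.77 ± 0.091 (n = 3), against 8.89 ± 0.21 in young wild type mice (n = 4, SD). Nlrp3, the gene targeted in CIAS -/- mice, lies on the same chromosome as Dhx33, at 59541569 to 59566955 on chromosome 11, with Dhx33 at 70984091 to 71004533. The part of this position in the Dhx33 differences was not tested.

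Ddx50 rose on 1 of its 3 probes. On ILMN_2957605 it ranged from 6.93 through a median of 7.11 to 7.23 in old CIAS -/- mice and from 6.76 through 7.03 to 7.38 in old ASC -/- mice, against 6.20, 6.79 and 7.00 in old wild type mice. The difference of Ddx50 from old wild type mice was 0.38 (SE 0.10, limma adjusted p = 0.0207) in CIAS -/- and 0.35 (SE 0.10, adjusted p = 0.0478) in ASC -/- mice, and both groups overlapped old wild type. Replicate 1 of old wild type was the lowest array, and without it the CIAS -/- call was lost (0.27, adjusted p = 0.0564). The ASC -/- call was lost in 24 of 32 such cases. The other Ddx50 probes gave 0.13 and 0.14 in old CIAS -/- mice and 0.02 and 0.03 in old ASC -/- mice, none called.

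**Figure D4:**
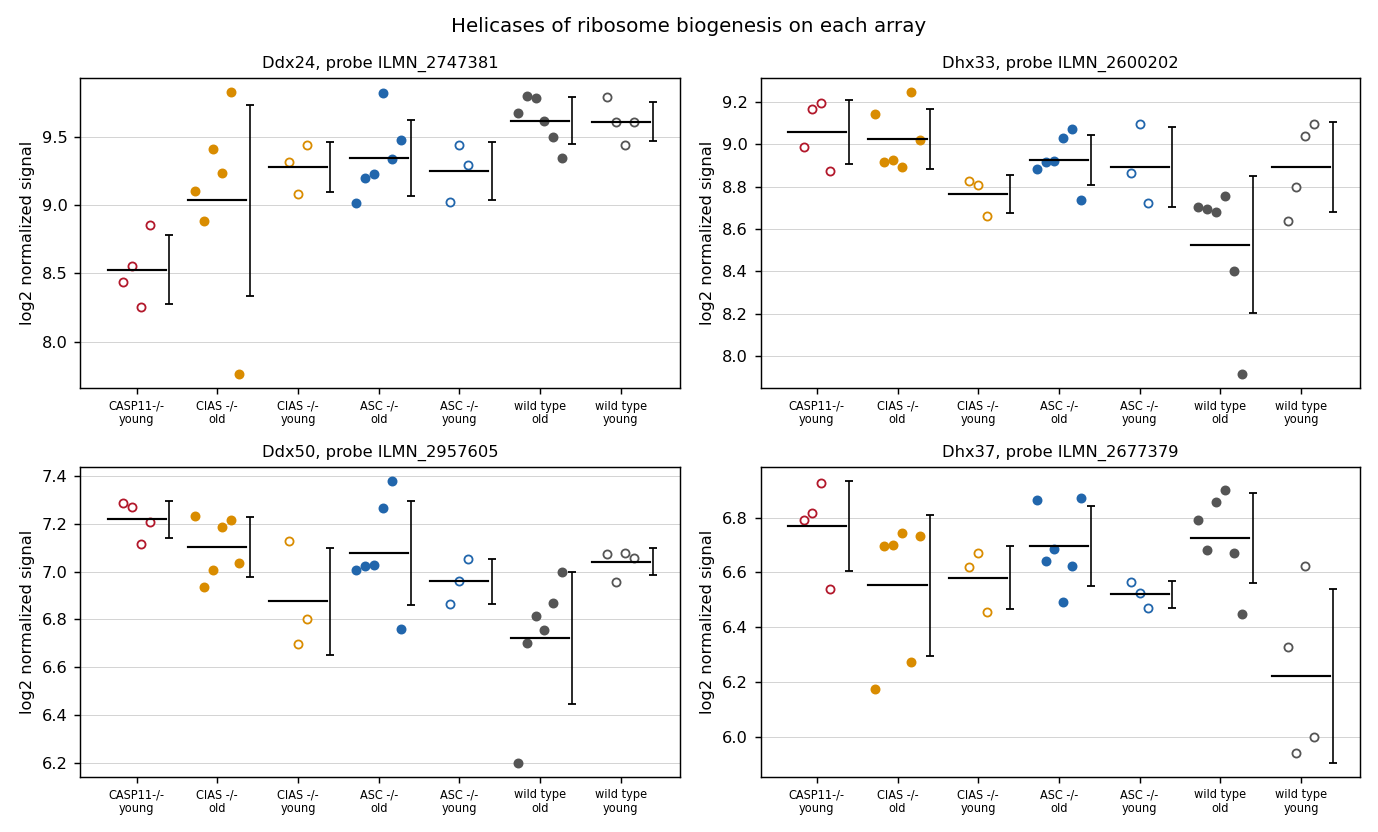
Log2 normalized signal of 4 helicases of ribosome biogenesis on each of 32 arrays (points, filled for old and open for young mice) in the 7 groups, with the group mean (line) and SD (bar). Ddx24 ILMN_2747381 is lowest in young CASP11-/- mice and on replicate 6 of old CIAS -/-, Dhx33 and Ddx50 ILMN_2957605 have their lowest mean in old wild type, and Dhx37 has its lowest mean in young wild type.

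Dhx37, which helps to mature the small ribosomal subunit, was called in 2 comparisons that share young wild type. Its level was 6.79, 6.82, 6.93 and 6.54 in young CASP11-/- mice, against 6.33, 5.94, 6.62 and 6.00 in young wild type mice, with an overlap of 1 array a side. The Dhx37 difference was 0.55 (SE 0.14, limma adjusted p = 0.0228). In old wild type mice it ranged from 6.45 through 6.74 to 6.90, a difference from young wild type mice of 0.50 (SE 0.12, adjusted p = 0.015). Without replicate 2 of young wild type, its lowest array, these became 0.45 (adjusted p = 0.101) and 0.41 (adjusted p = 0.0793). Ddx39b, a helicase of splicing and mRNA export, was the other of 2 helicase probes called for age in wild type mice, both higher in old mice, beside 5.25% of all probes (2.77% higher). On ILMN_3007669 it ranged from 10.37 through a median of 10.47 to 10.52 in old wild type mice, against 10.38, 10.15, 10.04 and 10.22 in young wild type mice, a difference of 0.26 (SE 0.070, limma adjusted p = 0.0292). The other Ddx39b probes gave 0.02 and -0.0004, and the call was lost in 5 of 32 cases in which 1 array was left out, with adjusted p up to 0.133. Without replicate 6 of old wild type, 5 helicase probes were called for age in wild type mice, 3 higher and 2 lower, beside 6.73% of all probes. These were Ddx6, Dhx37 and Ddx39b among the higher, and among the lower Ddx50 (-0.37, adjusted p = 0.0441) and the spliceosome disassembly helicase Dhx15 (-0.38, adjusted p = 0.0204). Ddx47, which processes ribosomal RNA, was called only by the F-test (limma adjusted p = 0.0217). On ILMN_2705067 it averaged 6.89 ± 0.056 in young CASP11-/- mice (n = 4), with the lowest group mean, 6.81 ± 0.23, in young ASC -/- mice (n = 3) and the highest, 7.24 ± 0.045, in young CIAS -/- mice (n = 3, SD).

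Of the roles other than decay, ribosome biogenesis and export, no helicase probe was called in any comparison or by the F-test. The translation helicases Ddx1, Ddx3x, Dhx29 and Dhx36 had 5 probes. Ddx1, which also acts on transfer RNA, varied least, with its group means on ILMN_2844316 within 0.054 of each other, and those of Dhx36, which unwinds G-quadruplexes, were within 0.17. Among helicases of transcription and splicing regulation, the group means of Ddx17 on ILMN_1234672 lay within 0.11, and those of its paralog Ddx5 within 0.38, where 1 old ASC -/- array was low. The spliceosomal helicases had 7 probes, with group means of Dhx15 on ILMN_1218571 within 0.40. The group means of the mitochondrial helicase Dhx30 lay within 0.062, and those of Ddx28, needed for mitochondrial ribosomes, within 0.099.

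Of the members listed under RNA sensing and antiviral response, Ddx58 was dim, while Dhx9 and Ddx41 were detected on all 32 arrays. Ddx58, which encodes the viral RNA sensor RIG-I, was detected on 23 of 32 arrays, 3 of 4 in young CASP11-/- mice and 2 of 4 in young wild type mice among them. It averaged 5.16 ± 0.097 in old CIAS -/- mice (n = 6) and 5.09 ± 0.15 in old ASC -/- mice (n = 6), against 5.25 ± 0.12 in old wild type mice (n = 6, SD). No comparison called it (F-test adjusted p = 0.402). Dhx58, which encodes the related regulator LGP2, was detected on 2 arrays, and the sensor Ifih1 had no kept probe. Dhx9, which binds double-stranded RNA and also unwinds hybrids of RNA and DNA, came nearest to a call in this role by the F-test (adjusted p = 0.0697), and the group means of the DNA sensor Ddx41 lay within 0.14. The list of sensor signalling had 6 of 11 genes with a kept probe and 8 probes. Of these Irf3, a transcription factor of the interferon response, fell on 1 of its 3 probes, ILMN_2664319, by 0.33 in young CASP11-/- mice against young wild type mice (limma adjusted p = 0.0387), the only call of this list there, beside 2.63% of all probes. The other Irf3 probes gave -0.24 and 0.03, and the call was lost in 7 of 32 cases in which 1 array was left out (adjusted p up to 0.143). Mavs, the mitochondrial adaptor of RIG-I, was 0.19 higher in the mean age effect of 3 genotypes (limma adjusted p = 0.0355), beside 5.52% of all probes called. This call was lost in 11 of 32 such cases (adjusted p up to 0.0826). Without replicate 6 of old wild type, 2 of the 8 probes were higher and 1 lower for the mean age effect, beside 7.55% of all probes. Helicases of the same kind under other symbols had 10 of 13 genes and 15 probes. Eif4a1, the helicase of the cap-binding complex, rose on 1 probe by 0.28 in old CIAS -/- mice (limma adjusted p = 0.0405) and on another by 0.20 in old ASC -/- mice (adjusted p = 0.0332) against old wild type mice. Each was the only call of the 15, beside 7.92% of all probes called for old CIAS -/- and 3.82% for old ASC -/- mice. These calls were lost in 6 and 5 of 32 such cases (adjusted p up to 0.104 and 0.0815).

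Ddx3x, an X-linked helicase that aids initiation on structured mRNAs, varied widely within groups. It was 9.16, 9.54, 8.87 and 9.49 in young CASP11-/- mice, against 9.00, 9.58, 9.32 and 9.76 in young wild type mice, and no comparison called it (F-test adjusted p = 0.536). In young CASP11-/- mice replicates 2 and 4, which gave its higher levels, were the arrays with low signal of the Y-linked gene Eif2s3y (4.33 and 4.36), against 9.80 and 9.97 on replicates 1 and 3. In old wild type mice Ddx3x was highest, at 9.77, on replicate 4, which had low Eif2s3y (4.43). In young ASC -/- mice the arrays with low Eif2s3y gave 9.00 and 9.71 for Ddx3x, on both sides of the 9.24 of the third array. Low Eif2s3y occurred on 2 of 4 young CASP11-/- arrays, 0 of 9 CIAS -/- arrays, 2 of 3 young and 0 of 6 old ASC -/- arrays, 1 of 6 old wild type arrays and 2 of 4 young wild type arrays.

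**Figure D5:**
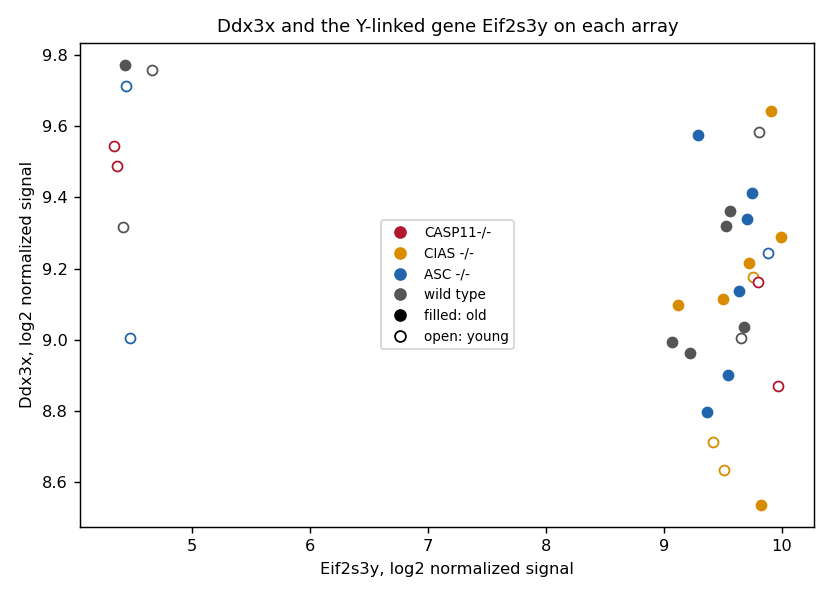
Log2 normalized signal of Ddx3x (vertical) against that of the Y-linked gene Eif2s3y (horizontal) on 32 arrays, coloured by genotype. The arrays with low Eif2s3y spread over Ddx3x levels from 9.00 to 9.77, and the others from 8.54 to 9.64.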

How the data were processed

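Per the labels, biotin-labelled RNA made from hippocampal total RNA was put on Illumina bead arrays, with an array for each sample. Per the file headers, the main deposited table gives raw probe intensity on a linear scale for 25697 probes on 32 arrays, with no normalization between arrays, and a detection p-value for every intensity. The submitters' processing notes name GenomeStudio. Normalized intensity was also deposited, made by a method that the sources used here do not state. Of its values 24.4% lay below 0, and it entered only as an alternative, floored at 16.

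In R 4.3.3 with limma 3.58.1, neqc was used for background correction (negative controls estimated from detection p-values), an offset of 16, quantile normalization and log2. Probes with a detection p-value under 0.05 on at least 3 arrays were kept and tested one by one in a single fit of 7 group means (25 residual and 4.38 prior degrees of freedom), 2-sided, for 14 comparisons and an F-test, with Benjamini-Hochberg adjustment over 14745 probes. Symbols came from the platform annotation, positions and promoters from RefSeq (GRCm38.p6). The fit was tested on simulated data.

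Groups came from titles and genotype labels. The labels do not say that samples of a group were separate animals, so the p-values reflect no more than the spread among these samples, and that spread may be technical. Chip and position were not given and were not tested. Named with values were all Ddx6 probes, every called member, in each role the probe of highest mean and that of smallest F-test p, Ddx3x, the RNA sensors, and targeted genes on the chromosome of a called member. The members, role and partner lists and tests were chosen with earlier results of these data known. Alternatives were another background correction, offset, filter, variance model and table of values, array weights, an Eif2s3y covariate, a replicate block, fits of the compared groups only, 1 probe a gene, and leaving out each array. Precision is limited by the number of arrays.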

Additional observations from a re-analysis of the deposited data

Results flagged for a closer look

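Over 24 named probes and 120 groups of 4 or 6 arrays, 7 groups held an array whose gap to the nearest of the others exceeded Dixon's critical value for its share of the group's range. Chance sets apart about 1 in 20 groups. Ddx5 was 6.54 log2 units on old ASC -/- replicate 4, against 7.34 to 7.55 on the others of its group. Old wild type replicate 6, the array with high striatal markers, was low for Ddx41 at 8.04 (others 8.47 to 8.70) and high for Dhx32 at 9.72 (others 9.04 to 9.19). Ddx39b on ILMN_2670895 was 11.49 on old CIAS -/- replicate 6 (others 11.22 to 11.30), the array with the lowest Ddx6. Dhx57 was 8.33 on young CASP11-/- replicate 3 (others 8.14 to 8.16). Ddx50 on ILMN_2957605 was 6.20 on old wild type replicate 1 (others 6.70 to 7.00) and 6.96 on young wild type replicate 2 (others 7.06 to 7.08).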

How the results depend on the processing

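The 19 calls of single helicase probes kept their direction under all alternatives. When each of 32 arrays was left out in turn, 531 of 608 such values stayed called and 77 did not, and under 11 other alternatives 177 of 197 did and 20 did not. All 3 Ddx6 calls in young CASP11-/- and in old CIAS -/- against wild type mice of their age held throughout. Called helicase probes when 1 array was left out numbered 0 to 5 for age in wild type mice, 0 to 1 for the mean age effect, 0 to 3 for the CIAS -/- minus wild type age effect, 3 to 5 for young CASP11-/- against wild type mice, 0 to 5 for old ASC -/- and 4 to 6 for old CIAS -/- against old wild type mice, 0 to 3 for young CASP11-/- against young ASC -/- mice, 1 to 5 against young CIAS -/- mice, and 5 to 9 in the F-test. Without old wild type replicate 6, 5 were called for wild type age (6.73% of all probes), 3 for its difference from CIAS -/- (1.24%), 1 for the mean age effect (7.55%) and 2 for young CASP11-/- against ASC -/- mice (0.639%), and the share of all probes called was 4.14% for young CASP11-/- against wild type and 1.48% against CIAS -/- mice. The 0 for old ASC -/- came without its replicate 1 or 5, and the 0 for wild type age without young wild type replicate 2 or 4. The 3 for young CASP11-/- against wild type mice came without its replicate 3, the 5 against young CIAS -/- mice without old CIAS -/- replicate 6, and the 5 in the F-test without young CIAS -/- replicate 4. With array weights, 7 probes were called for age in wild type (beside 9.2% of all probes), 2 for age in CIAS -/- (2.69%), 2 for the mean age effect (11.1%), 7 for the CIAS -/- minus wild type age effect (2.77%), 3 for young CASP11-/- against ASC -/- (1.97%) and 8 against CIAS -/- mice (6.84%), so shares over all probes rose too. With 1 probe a gene, where fewer probes were tested, 1 was called for age in wild type, 2 for young CASP11-/-, 1 for old ASC -/- and 2 for old CIAS -/- against wild type, 0 for young CASP11-/- against ASC -/-, 1 against CIAS -/- mice and 3 in the F-test. With only the compared groups fitted, which leaves fewer arrays for the spread, these numbered 0 for age in wild type, 0 for old ASC -/- and 3 for old CIAS -/- against wild type, 4 for young CASP11-/- against ASC -/- and 5 against CIAS -/- mice. For young CASP11-/- against ASC -/- mice, 0 were called with quantile normalization alone, an offset of 50, no filter, the Eif2s3y covariate, or trended and robust variance. The Eif2s3y covariate left 1 for age in wild type, and no filter left 1 for old ASC -/-. A count with no share over all probes beside it does not tell the helicases from the arrays as a whole. Where no reason is given, the cause was not tested.

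Same-numbered samples of different groups did not deviate together (median r 0.00057 over 79 pairs, 17 above 0.1, against 0.0052 over 354 other pairs), so the numbers were not taken to pair samples. With the replicate number as a block, 2 helicase probes in place of 1 were called for young CASP11-/- against ASC -/- mice, and no other count moved by over 1.5 times. Probes near background, such as Ddx6 ILMN_3114632 in young CASP11-/- mice and Ddx58, limit how low a level can be measured.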

Other observations

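Old CIAS -/- replicate 5 had both a high signal of the X-inactivation transcript Xist (7.76 log2 units, against at most 5.22 on the other 5 arrays of its group) and a high signal of the Y-linked gene Eif2s3y (9.91). It also had the highest Ddx3x of its group, at 9.64, where the others ranged from 8.54 to 9.29. Its Ddx6 level on ILMN_2606667, 7.77, lay within its group.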
